A study of Homo sapiens with 16 samples.

Results

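The G1 cyclins and the CDK inhibitors of MCF10A cells were followed through 45 hours of HER2 inhibition. They comprise 10 genes, the D-type cyclins CCND1, CCND2 and CCND3, the E-type cyclins CCNE1 and CCNE2, the CIP/KIP inhibitors CDKN1A (p21), CDKN1B (p27) and CDKN1C (p57), and the INK4 inhibitors CDKN2B (p15) and CDKN2C (p18). They were found by gene symbol in the deposited intensity table and were read by 11 of its 20589 rows. MCF10A cells are human breast epithelial cells that are not transformed, and they were grown here in serum-free medium with insulin and EGF. Parallel cultures received 1 µM the HER2 kinase inhibitor CP724,714, and RNA was collected every 3 h from 3 to 45 h, while the culture of 0 h was untreated. Each of the 16 time points is 1 Illumina human Ref8v2 bead array, with no replicate, and all cultures got new medium at the start of treatment. As untreated cells were measured at 0 h alone, the action of the inhibitor, the new medium and time in culture cannot be told apart.

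Cells leave G1 when cyclin D bound to CDK4 or CDK6, and then cyclin E bound to CDK2, phosphorylate the retinoblastoma protein and free E2F factors to transcribe genes of S phase. INK4 proteins bind CDK4 and CDK6 and keep cyclin D off, whereas CIP/KIP proteins bind whole cyclin and CDK complexes. In mammary epithelial cells EGF receptor family signalling through ERK and AKT is known to raise CCND1 and to lower p27, and much of the control of p27 and of the cyclins is exerted on the protein, which an array does not measure. MCF10A cells are also known to lack the chromosomal locus that holds CDKN2A and CDKN2B.

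RefSeq promoters were matched by symbol for 6 of the 10 genes, and for 4 of them that changed on the arrays the 250 bases before the start of transcription are shown, to set the letters of known motifs beside the time courses. All are from GRCh38.p14, and capitals mark 1 motif in each: GC boxes (GGGCGG on either strand) in CCNE1 and CDKN1A, CCAAT boxes (CCAAT on either strand) in CDKN1B, and E2F cores (TTCCCGC on either strand, with C or G allowed as the third and the fourth letter) in CDKN2C.
CCNE1, chr19:29811741-29811990, plus strand: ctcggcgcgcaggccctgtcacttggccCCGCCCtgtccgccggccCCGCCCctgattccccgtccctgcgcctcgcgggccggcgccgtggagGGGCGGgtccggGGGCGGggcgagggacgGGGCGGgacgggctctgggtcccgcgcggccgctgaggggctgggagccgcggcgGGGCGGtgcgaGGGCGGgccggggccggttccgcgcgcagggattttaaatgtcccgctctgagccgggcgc
CDKN1A, chr6:36678464-36678713, plus strand: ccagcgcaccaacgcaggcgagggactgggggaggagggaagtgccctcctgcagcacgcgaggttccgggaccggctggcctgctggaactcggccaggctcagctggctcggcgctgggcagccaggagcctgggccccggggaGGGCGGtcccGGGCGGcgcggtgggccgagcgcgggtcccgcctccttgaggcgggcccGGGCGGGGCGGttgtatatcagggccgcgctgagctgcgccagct
CDKN1B, chr12:12717118-12717367, plus strand: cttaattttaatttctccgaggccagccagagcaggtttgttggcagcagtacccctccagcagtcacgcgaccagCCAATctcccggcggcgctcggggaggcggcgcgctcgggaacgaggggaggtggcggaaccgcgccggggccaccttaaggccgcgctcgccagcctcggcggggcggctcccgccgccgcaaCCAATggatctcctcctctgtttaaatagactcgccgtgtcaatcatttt
CDKN2C, chr1:50968456-50968705, plus strand, the second of 3 listed starts: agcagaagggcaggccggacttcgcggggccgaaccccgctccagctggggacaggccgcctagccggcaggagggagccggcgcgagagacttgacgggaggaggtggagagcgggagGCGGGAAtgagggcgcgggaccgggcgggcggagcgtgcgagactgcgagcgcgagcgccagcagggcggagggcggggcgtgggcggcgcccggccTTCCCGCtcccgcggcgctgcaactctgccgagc

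CCNE1 had 7 GC boxes and CDKN1A had 4, and 45.0% of 35116 promoters of the same 300 bases (250 before and 50 after the start) held at least 1. CDKN1B had 3 CCAAT boxes, of which 2 lie before the start and are marked, against at least 1 in 34.6% of promoters. The second CDKN2C start had 2 E2F cores, which 13.0% of promoters matched at least once. The other CDKN2C starts and the single start listed for CCNE1 held no E2F core. The single start listed for CDKN1B held no E2F core and no match to a forkhead motif, which 3.42% of promoters matched at least once. CCND3, which changed as well, had 3 listed starts that are not shown. These are matches of letters, and no binding was measured.

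On the arrays, 7 of the 11 rows were called above background (a detection p under 0.05, set against control beads) on 3 or more of the 16 arrays and were tested, for CCND1, CCND3, CCNE1, CDKN1A, CDKN1B, CDKN1C and CDKN2C. Rows above background made up 50.1 to 52.9% of each array, the median intensity lay between 210 and 254, and the correlation between any pair of arrays was 0.976 to 0.996. The basal keratin KRT5 was above background on every array, while the hormone receptors ESR1 and PGR and the blood and endothelial genes CD3E, CDH5 and VWF never were. KRT14, a further basal marker, was above background on 1 array. Of the 7 luminal markers, KRT8, KRT18, KRT19 and FOXA1 were above background on all 16 arrays and GATA3 on 15. CD14 on 12 arrays and PECAM1 on 15 arrays were above background, and the summed intensity of the 7 blood and endothelial markers lay between 1408 and 1612. Of the other CDK inhibitor genes, CDKN2A was above background on 3 arrays, the fewest that the filter admits, and CDKN2D was a combined row that was not tested. The normalized log2 intensity of CDKN2A was only 5.53 to 6.11 over the series.

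The detection p of a row that combines several probes did not follow its intensity, and this touches 5 of the 11 rows, those of CCNE1, CCNE2, CDKN1A, CDKN2B and CDKN2C (ILMN_18926, the second CDKN2C row). CDKN1A, at intensities of 6099 to 14951, had detection p-values up to 0.019, whereas single-probe rows passed the threshold from intensities of 201 to 248 upward, depending on the array. CCNE2 lay between 223 and 562, at or above that lowest detected intensity on all 16 arrays, but its p was between 0.0505 and 0.464 and it passed on no array. It was among 47 rows without a single pass, of 686 combined rows that were this bright on all arrays. CCNE1 passed by p on 3 arrays, at 18, 33 and 45 h, and by intensity on 13. CCNE2 and the second CDKN2C row are therefore given with the test run without a filter. The changes of CCNE1 and CCNE2 are given on the log2 scale alone.

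CCND2 and CDKN2B were not above background on any array, by detection p or by intensity. CCND2, the remaining D-type cyclin, had intensities between 134 and 178, and its detection p was 0.633 to 0.997. CDKN2B, the INK4 inhibitor encoded beside CDKN2A, had intensities between 160 and 211 and detection p-values of 0.118 to 0.879. Both stayed under the lowest detected single-probe intensity at every time point, and neither was in the main tests. A limma F-test of time without a filter gave adjusted p-values of 0.69 for CCND2 and 0.49 for CDKN2B.

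**Figure D1:**
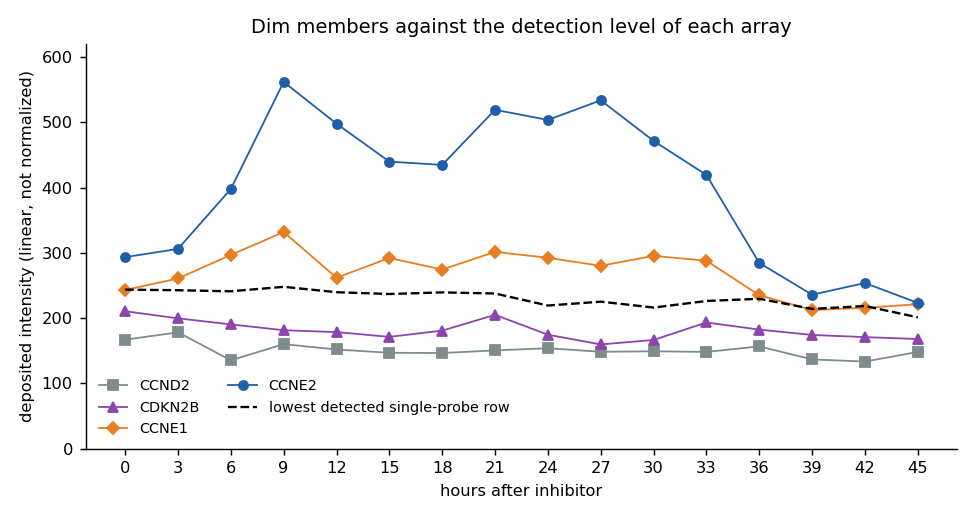
Deposited intensity (vertical axis, linear and not normalized) of the 4 dimmest genes against hours after the inhibitor was added, 1 array a time point, with the lowest intensity that passed detection among single-probe rows of the same array as a dashed line. CCNE2 was above the line at all 16 time points with its highest value of 562 at 9 h, CCNE1 was above it at 13, and CCND2 and CDKN2B stayed below it.

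All 7 tested rows were time-dependent by a smooth curve through the 16 time points (limma's moderated F-test on a spline, Benjamini-Hochberg adjusted over 11957 probes), where 54.6% of all tested probes passed. The adjusted p was 1.8e-05 for CDKN2C, 2.3e-05 for CDKN1C, 6.1e-04 for CCND3, 0.0027 for CCND1, 0.0099 for CDKN1A, 0.014 for CDKN1B and 0.021 for CCNE1. Without the 0 h array CCND1 had an adjusted p of 0.085 and CDKN1A one of 0.13, and without the 42 h array CCNE1 had one of 0.065. With the arrays up to 21 h and those from 24 h on as separate sets, CDKN1B had 0.15. CCNE2 passed when no filter was applied (adjusted p = 8.5e-06), while the second CDKN2C row did not (adjusted p = 0.48).

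The courses differed in the time of their extremes. On the log2 scale CCND1 was lowest at 0 h and highest at 9 h, a 2.80-fold range, and CCND3 was lowest at 0 h and highest at 45 h, a 1.58-fold range. CDKN1A and CDKN1B were highest in the untreated 0 h culture and lowest at 9 h and 6 h, with ranges of 2.46-fold and 2.92-fold. CDKN1C had the widest range of the 7 tested rows, 4.76-fold, from its lowest value at 12 h to its highest at 45 h. CDKN2C was highest at 0 h and lowest at 24 h, a 3.61-fold range.

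**Figure D2:**
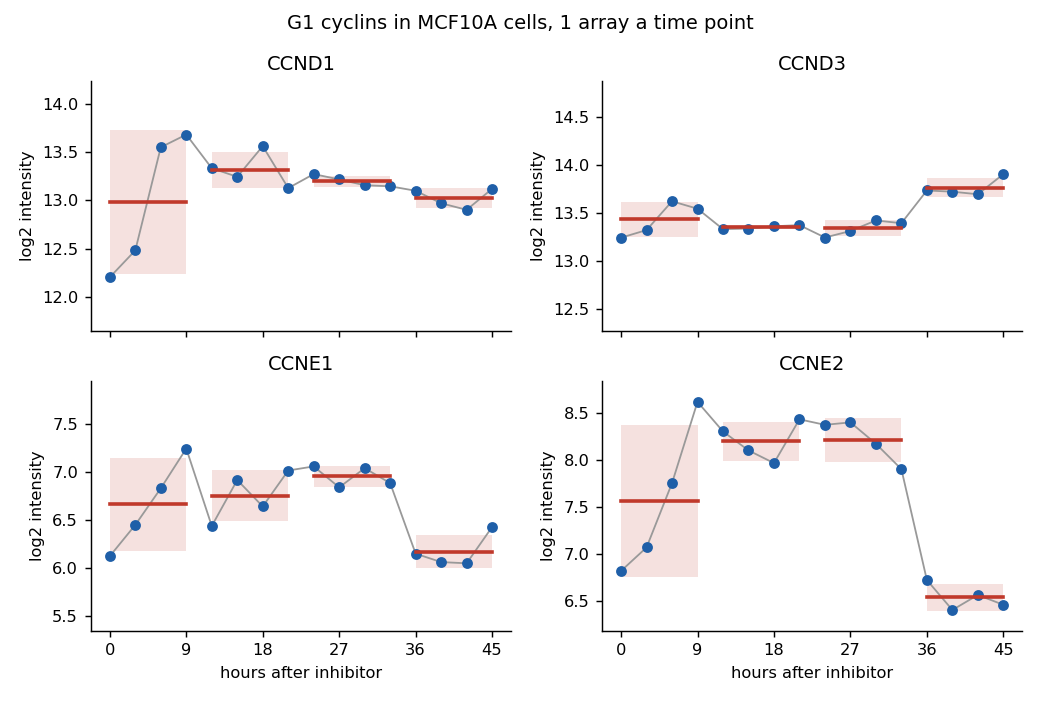
Normalized log2 intensity of 4 G1 cyclins against hours after the inhibitor was added. Points are single arrays, red lines are the means of 4 consecutive time points and shaded bands are 1 SD around them. CCND1 rose from 12.20 at 0 h to 13.69 at 9 h, and CCNE2, which was at 7.90 at 33 h, was at 6.72 at 36 h.

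The first 9 hours held opposite movements of cyclins and inhibitors. Between the arrays of 0 and 3 h and those of 6 and 9 h, CCND1, CCND3 and CCNE1 rose and CDKN1A, CDKN1B and CDKN2C fell, which makes 6 of the 7 tested rows past an adjusted p of 0.05 in limma, where 24.7% of all tested probes passed (13.2% higher and 11.5% lower). The median absolute log2 change was 0.75 over the 7 rows and 0.24 over all tested probes. A group here is 2 arrays of neighbouring times, which are not replicates, and the spread was pooled over all 8 such pairs. The pairs did not overlap in 5 of the 7 rows, as in 56.1% of all tested probes. Without the untreated 0 h array 3 of the 7 rows passed, those of CCND1, CDKN1A and CDKN2C.

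CCND1, the main EGF-responsive D cyclin of epithelial cells, had log2 intensities of 12.20 at 0 h, 12.48 at 3 h, 13.55 at 6 h and 13.69 at 9 h. Both later arrays lay above both earlier ones, and the change was 1.28 ± 0.12 (SE) on the log2 scale, or 2.43-fold, with an adjusted p of 2.8e-06. Its largest step was 1.07 from 3 to 6 h, and leaving out any 1 array gave changes between 1.14 and 1.42. CCND3, a D cyclin best known from lymphocytes, was at 13.24 and 13.32 and then at 13.62 and 13.55. That was a rise of 0.30 ± 0.07 (SE, adjusted p = 0.0055), which without the 0 h array was 0.26 with an adjusted p of 0.052.

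Of the E cyclins, which activate CDK2, CCNE1 had log2 intensities of 6.12, 6.45, 6.83 and 7.24 from 0 to 9 h. The change was 0.75 ± 0.22 (SE, adjusted p = 0.019), and it was 0.59 without the 0 h array (adjusted p = 0.14) and 0.54 without the 9 h array (adjusted p = 0.19). Without background correction it was 0.32 (adjusted p = 0.026). None of these 4 arrays passed detection by p for CCNE1. CCNE2 was at 6.82, 7.07, 7.75 and 8.62 at the same times, which was also an order without overlap between the pairs. Its change was 1.24 ± 0.24 (SE), with an adjusted p of 0.0010 in the test without a filter.

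CDKN1A, a CIP/KIP inhibitor of cyclin and CDK complexes, fell at each step, from 13.87 at 0 h to 13.44, 12.99 and 12.57. The change was -0.87 ± 0.13 (SE), or 1.83-fold lower, with an adjusted p of 1.4e-04. CDKN1B, which holds cyclin E and CDK2 inactive, was at 10.38 at 0 h and then at 9.04, 8.83 and 9.08. Almost all of its fall thus lay between the 0 h and the 3 h array, a step of -1.34. The change between the pairs was -0.75 ± 0.27 (SE, adjusted p = 0.049), and it was -0.08 without the 0 h array (adjusted p = 0.79). The call of CDKN1B was also lost, with adjusted p-values of 0.051 to 0.20, under 16 further settings, among them leaving out any other array except that of 3 h.

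CDKN2C, an INK4 inhibitor, had log2 intensities of 8.80, 8.38, 7.64 and 7.54 by the row that was above background on all arrays (ILMN_138785). The change was -0.996 ± 0.198 (SE), or 1.99-fold lower (adjusted p = 0.0014). The second CDKN2C row was at 7.78, 7.25, 7.03 and 6.71, a change of -0.65 ± 0.23 (SE) with an adjusted p of 0.067 without a filter and 0.037 when combined rows were kept by intensity. CDKN1C, an imprinted CIP/KIP gene, was at 8.70, 8.56 and 8.61 up to 6 h and at 7.67 at 9 h. Its change of -0.49 ± 0.28 (SE) did not pass (adjusted p = 0.23), and it was -0.97 without the 6 h array (adjusted p = 0.024) and -0.021 without the 9 h array (adjusted p = 0.97).

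**Figure D3:**
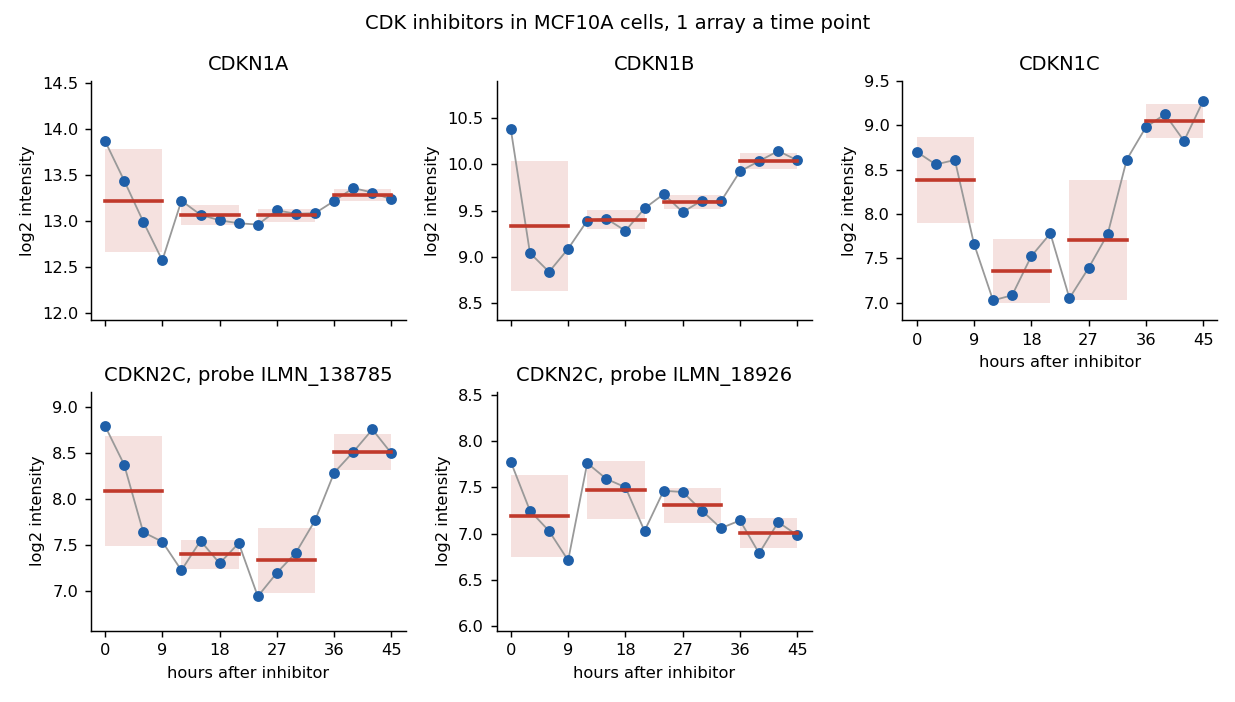
Normalized log2 intensity of 4 CDK inhibitors against hours after the inhibitor was added, with both CDKN2C rows. Points are single arrays, red lines are the means of 4 consecutive time points and shaded bands are 1 SD around them. CDKN1A was at 13.87 and CDKN1B at 10.38 in the untreated 0 h culture, and CDKN1C rose from 7.05 at 24 h to 9.28 at 45 h.

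Some other genes of the G1 machinery passed the same comparison, as did 24.7% of all tested probes (13.2% higher and 11.5% lower). CDC25A, the phosphatase that activates CDK2, rose by 1.42 ± 0.23 (SE, adjusted p = 2.6e-04), CDK6 rose by 0.51 (adjusted p = 0.0027) and CDK4 changed by -0.33 (adjusted p = 0.016), the 3 calls among 8 CDKs and activators. Of 10 pocket proteins and E2F genes, E2F5 (0.84) and E2F4 (0.66) rose and TFDP1 (-0.28) fell. Of 16 tested factors known to act on promoters of these cyclins and inhibitors, 1 rose and 6 fell. The riser was MYC, an activator of cyclin genes and repressor of CDKN1A, at 0.90 ± 0.21 (SE, adjusted p = 0.0040). Among those that fell were FOS (-1.95), a subunit of AP-1, KLF6 (-1.28), KLF4 (-1.12), an activator of CDKN1A, and ETS2 (-0.96). Of 14 S phase genes that E2F is known to activate, only TYMS (-0.63) and PCNA (-0.43) passed, both lower.

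From 12 to 21 h CDKN1C and the tested CDKN2C row were lower than in the first 9 h, and most of the S phase genes were higher. Set against the 4 arrays of 0 to 9 h, the 4 arrays of 12 to 21 h differed in 2 of the 7 rows (29.5% of all tested probes passed), CDKN1C and CDKN2C, both lower. In 0 of the 7 rows were the groups without overlap (23.1% of all tested probes). The log2 intensities of CDKN1C were 7.03, 7.08, 7.52 and 7.78 from 12 to 21 h, and only the last overlapped the earlier range, whose lowest value was 7.67 at 9 h. The change of CDKN1C was -1.03 ± 0.28 (SE, adjusted p = 0.011). CDKN2C, with 7.23, 7.55, 7.30 and 7.52, changed by -0.69 ± 0.23 (SE, adjusted p = 0.034), and its adjusted p was 0.10 without the 0 h array, 0.10 without the 3 h array, 0.087 without the 12 h array and 0.076 without the 18 h array. Without the 9 h array 4 rows passed, with CCND1 higher and CDKN1A lower beside these. The second CDKN2C row differed in sign, with a change of 0.28 ± 0.20 (SE, adjusted p = 0.42 without a filter).

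The E cyclins did not pass in this comparison. The mean log2 intensity of CCNE1 was 6.66 ± 0.48 (SD, n = 4 time points) over 0 to 9 h and 6.75 ± 0.26 (SD, n = 4) over 12 to 21 h, and that of CCNE2 was 7.56 ± 0.81 and 8.20 ± 0.21. In both genes the highest array of the series was that of 9 h. The change of CCNE2 was 0.64 ± 0.26 (SE, adjusted p = 0.12 without a filter). Of the 14 S phase genes 13 rose, with a median log2 change of 0.74 against -0.00060 over all tested probes, led by the replication licensing genes MCM6 (1.34 ± 0.20, SE) and MCM3 (1.06). Of the pocket proteins and E2F genes 5 of 10 rose, with E2F2 (1.19) and E2F1 (0.92) ahead, and none fell. Among all tested probes 15.1% passed as higher and 14.4% as lower. SKP2, the F-box protein that marks p27 for destruction, rose by 0.98 ± 0.16 (SE, adjusted p = 2.2e-04), while the mean of CDKN1B was 9.33 ± 0.71 and then 9.40 ± 0.10 (SD, n = 4). The earlier mean of CDKN1B includes the untreated 0 h value of 10.38. From 3 to 9 h CDKN1B was at 9.04, 8.83 and 9.08, below each of its values of 9.39, 9.41, 9.28 and 9.52 from 12 to 21 h.

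Between 12 to 21 h and 24 to 33 h none of the 7 rows passed in limma, and 3 of 11957 probes did (0.0251%), while the groups were without overlap in 0 of the 7 rows and in 5.24% of all tested probes. The largest change among the rows was that of CDKN1C, 0.35 ± 0.28 (SE, 95% interval -0.24 to 0.95), and no row had an unadjusted p under 0.05, the lowest being 0.23. Within the later window CDKN1C climbed at each step, from 7.05 at 24 h to 7.39, 7.77 and 8.61 at 33 h. The tested CDKN2C row did the same, from 6.95 to 7.20, 7.42 and 7.77. Both were thus higher at 33 h than at any time from 12 to 30 h. CCNE2 moved the other way after 27 h, from 8.40 to 8.17 and 7.90. The second CDKN2C row also fell, from 7.46 at 24 h to 7.45, 7.25 and 7.06 at 33 h.

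**Figure D4:**
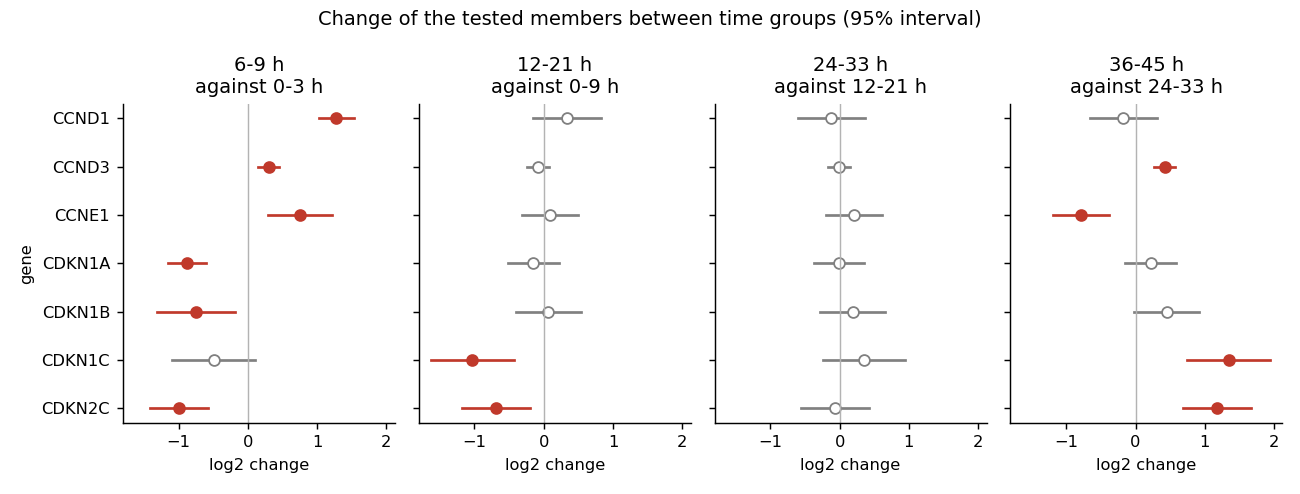
Log2 change (horizontal axis) of the 7 tested rows between neighbouring time groups, with 95% intervals from limma. Red filled points passed an adjusted p of 0.05 and grey open points did not: 6 rows between 0 to 3 h and 6 to 9 h, 2 at 12 to 21 h, 0 at 24 to 33 h and 4 at 36 to 45 h.

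After 33 h the members changed again, and the E cyclins moved against CCND3, CDKN1C and the tested CDKN2C row. From 24 to 33 h to 36 to 45 h, CCND3, CDKN1C and CDKN2C rose and CCNE1 fell, 4 of the 7 rows, where 38% of all tested probes passed (19.3% higher and 18.7% lower). In all 7 rows the 4 later values lay on one side of the 4 earlier ones, as in 44.8% of all tested probes. The median absolute log2 change was 0.45 over the 7 rows and 0.25 over all tested probes.

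CCNE2, which passed detection by p on no array, had the largest late fall among the cyclins. Its log2 intensities were 8.37, 8.40, 8.17 and 7.90 from 24 to 33 h and 6.72, 6.40, 6.56 and 6.46 from 36 to 45 h. The change was -1.68 ± 0.26 (SE, adjusted p = 6.8e-05 without a filter), with a step of -1.18 between 33 and 36 h alone. CCNE1 was at 7.06, 6.84, 7.04 and 6.88 and then at 6.15, 6.06, 6.05 and 6.43, a change of -0.78 ± 0.19 (SE, adjusted p = 0.0037), which was -0.33 without background correction (adjusted p = 0.0045). It passed detection by p on 1 of 4 arrays in each of these groups. CCND1 was at 13.27, 13.22, 13.16 and 13.15 and then at 13.10, 12.97, 12.90 and 13.12. These values do not overlap, but the change of -0.18 ± 0.23 (SE) did not pass (adjusted p = 0.60).

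CCND3 took the other direction from the E cyclins. It was at 13.25, 13.31, 13.42 and 13.40 from 24 to 33 h and at 13.74, 13.72, 13.70 and 13.91 from 36 to 45 h. Its rise was 0.42 ± 0.07 (SE), or 1.34-fold, with an adjusted p of 2.4e-04, and leaving out any 1 array gave rises of 0.37 to 0.45. With median scaling in place of quantile normalization the rise was 0.25 (adjusted p = 0.025).

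Among the inhibitors CDKN1C rose most, from 7.05, 7.39, 7.77 and 8.61 to 8.98, 9.13, 8.83 and 9.28. The rise was 1.35 ± 0.28 (SE), or 2.54-fold (adjusted p = 0.0011). CDKN2C, whose row above background was at 6.95, 7.20, 7.42 and 7.77, was then at 8.29, 8.51, 8.76 and 8.50. It rose by 1.18 ± 0.23 (SE), or 2.27-fold (adjusted p = 6.7e-04). The second CDKN2C row had a mean of 7.31 ± 0.19 and then of 7.01 ± 0.17 (SD, n = 4), a difference of -0.30 ± 0.20 (SE, adjusted p = 0.36 without a filter). The 2 CDKN2C rows, which may read different transcripts, thus differed in sign here, and their difference was not tested.

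CDKN1B and CDKN1A were higher in all 4 late arrays without passing the test. CDKN1B was at 9.68, 9.48, 9.61 and 9.60 and then at 9.93, 10.04, 10.15 and 10.05. The difference was 0.45 ± 0.22 (SE, adjusted p = 0.13), and without the 0 h array, which is in neither group, the same difference had an adjusted p of 5.7e-04. CDKN1A was at 12.96, 13.12, 13.08 and 13.09 and then at 13.22, 13.36, 13.31 and 13.24, a difference of 0.22 ± 0.17 (SE, adjusted p = 0.35) that was 0.037 with median scaling. When only the 8 arrays compared were fitted, all 7 rows passed, with adjusted p-values of 2.2e-04 for CDKN1B, 0.0032 for CDKN1A and 0.022 for CCND1.

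S phase genes, CDKs and E2F genes fell in the same window, in which 18.7% of all tested probes passed as lower and 19.3% as higher. All 14 S phase genes fell, with a median log2 change of -1.31 against -0.0021 over all tested probes, among them RRM2 (-2.00), a subunit of ribonucleotide reductase, POLA2 (-1.68) and CCNA2 (-1.50), the cyclin that follows cyclin E. Of the CDKs and activators 5 of 8 fell, CDC25A by -1.85 ± 0.30 (SE), CDK4 (-0.71), CDK2 (-0.61), CDK6 (-0.53) and CCNH (-0.46), and 1 rose, CDK7 (0.32). Of 10 pocket proteins and E2F genes 5 fell, with E2F1 at -1.87 and E2F2 at -1.73, and 1 rose, RBL2 (0.38), the pocket protein of resting cells. CDKN3, a phosphatase of CDK2, fell by 1.11 on the log2 scale.

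Genes that turn over cyclins and p27 fell in 7 and rose in 2 of 13 cases. SKP2 (-1.07), its partner CKS1B (-1.04), CKS2 (-1.29) and FBXO4 (-0.73), an F-box protein for cyclin D1, were among those that fell. CRYAB, part of a ligase for cyclin D1, rose by 1.97 ± 0.10 (SE), and RNF123, part of a ligase for p27, by 0.32. Of the 16 tested promoter factors 6 rose. FOXO4 (1.69) and FOXO1 (0.72), forkhead activators of CDKN1B, KLF6 (0.92) and ID1 (0.82) were higher, while FOSL1 (-1.14) was lower. Basal markers moved as well, with 4 of 8 tested genes higher and 1 lower, and their summed intensity was 70195 to 81788 over 24 to 33 h and 72275 to 84744 over 36 to 45 h. Of the luminal markers 2 of 5 tested genes were higher, GATA3 (0.66) and KRT19 (0.85), and of 3 tested blood and endothelial markers CD14 (1.02) was. The counts of this paragraph stand beside 38% of all tested probes that passed, 19.3% higher and 18.7% lower. The part of a shift in cell state in the changes of the cyclins and inhibitors was not tested.

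**Figure D5:**
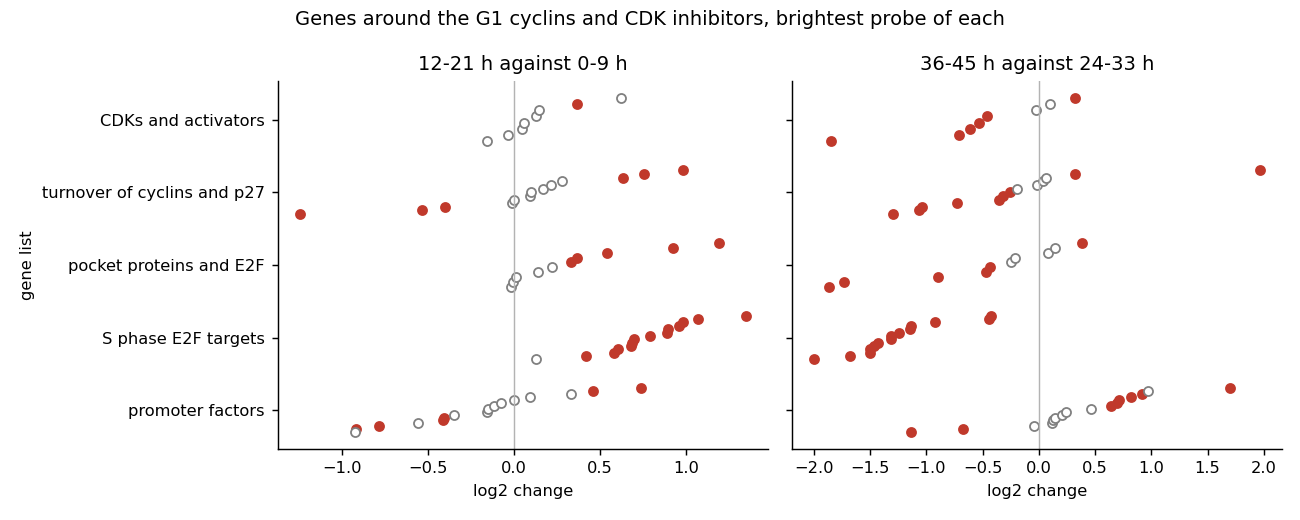
Log2 change (horizontal axis) of each tested gene in 5 lists of genes around the G1 cyclins and CDK inhibitors, at 12 to 21 h against 0 to 9 h (left) and 36 to 45 h against 24 to 33 h (right). Each point is the brightest probe of 1 gene, red filled where the adjusted p was under 0.05. In the list of 14 S phase genes, 13 rose in the left panel and 14 fell in the right one.

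Set against the first 9 h, the last 4 arrays differed in 2 of the 7 rows, CCND3 and CDKN1B, both higher (31.2% of all tested probes passed, 16.2% higher and 15% lower). CCND3 was 0.33 ± 0.07 (SE) higher on the log2 scale, with an adjusted p of 0.0025. It and CDKN1C were the 2 of 7 rows without overlap between these groups, against 25.9% of all tested probes. CDKN1B was 0.70 ± 0.22 (SE) higher (adjusted p = 0.022), although its 0 h value of 10.38 exceeded all 4 late values. Its adjusted p was 0.065 without the 3 h array, 0.081 without the 6 h array, 0.053 without the 9 h array and 0.056 without the 42 h array. Leaving out the untreated 0 h array gave a change of 1.05, and the call was kept. When the difference between the means of 12 to 21 h and 24 to 33 h was taken out, the change of CDKN1B was 0.51 with an adjusted p of 0.32. That contrast holds 4 group means in place of 2 and is therefore less precise.

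The remaining 5 rows did not pass. CCND1 changed by 0.04 ± 0.23 (SE) and CDKN1A by 0.06 ± 0.17 (SE). CCNE1 changed by -0.49 ± 0.19 (SE, adjusted p = 0.062), CDKN1C by 0.67 ± 0.28 (SE, adjusted p = 0.082) and CDKN2C by 0.43 ± 0.23 (SE, adjusted p = 0.18). Without the untreated 0 h array the last 3 passed, CCNE1 at -0.67 (adjusted p = 0.0066), CDKN1C at 0.77 (adjusted p = 0.04997) and CDKN2C at 0.66 (adjusted p = 0.016). With the 0 h array kept, CDKN1C also passed without background correction (0.46, adjusted p = 0.042), with median scaling (0.83, adjusted p = 0.029) and without the 33 h array (0.67, adjusted p = 0.036), whereas without the 9 h array it was 0.43 (adjusted p = 0.24). CCNE2 changed by -1.03 ± 0.26 (SE, adjusted p = 0.0084 without a filter), with no overlap. The second CDKN2C row changed by -0.18 ± 0.20 (SE, adjusted p = 0.61 without a filter).

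Pairs of courses were alike or mirrored to different degrees over the 16 arrays, which are neighbouring times of 1 series and share its trend. CDKN1C and CDKN2C had the highest Pearson r of the 21 pairs of tested rows, 0.87, and CCND1 and CDKN1A the lowest, -0.90. CCND1 and CCND3, both D cyclins, had an r of 0.15. Among all other tested probes the courses most like that of CCND1 were PMPCA (r = 0.96) and C21orf63 (0.94), and those most like CCND3 were RAC2 (0.96) and GRAMD1A (0.95). ZFYVE26 (0.94) and SHMT1 (0.94) were most like CDKN1A, and MT1E (0.94) and NFKBIA (0.93) most like CDKN1B. RAB9A (0.97) and TESK2 (0.96) were most like CDKN1C, and SLITL2 (0.97) and FBXW4 (0.97) most like CDKN2C. An r above 0.9 was reached by 168 probes with CDKN2C and by 8 with CDKN1B.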

How the data were processed

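The authors deposited linear bead intensity values without normalization. Beside each stands the deposited detection p-value, whose steps imply 708 negative control beads. The study's methods state quantile normalization. The software that summarised the beads is not given in the sources used here. Of the 20589 rows, 1497 combine several probes.

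Limma 3.58.1 in R 4.3.3 was used for normexp correction (offset 16, background from single-probe rows), quantile normalization and log2 values. Plots used matplotlib 3.10.9. The offset understates changes of dim probes. The filter (detection p below 0.05, 3 or more arrays) left 11957 probes for 11290 symbols. Limma fits with an intensity trend used a spline of time with 3 degrees of freedom, 4 groups of 4 time points, or 8 pairs. P-values were adjusted by Benjamini-Hochberg over all tested probes, and calls were made under 0.05. With 1 array a time point, p-values rest on the spread between neighbouring times.

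The members and gene lists were chosen with earlier results of these data known. Named genes are all 10 members, at most 5 called genes a list with the largest change, genes never above background, and the 2 most correlated probes a member. CDK7, RBL2, RNF123, KRT8, KRT18 and FOXA1 were named after their values were seen. The lists cover CDKs and activators, other CDK inhibitors, cyclin and p27 turnover, pocket proteins and E2F, S phase genes, promoter factors, and basal, luminal and blood or endothelial markers. The fits were first tested on simulated data. Alternatives changed the background correction, scaling, filter, curve and arrays used. RefSeq promoters of GRCh38.p14 were searched for letters only. Some genes of these lists are not reported here.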

Additional observations from a re-analysis of the deposited data

How the results depend on the processing

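Under the alternatives to the processing, 28 results of single genes were computed 680 times. Of these values 626 kept their side of the threshold, 43 lost the call, 11 gained it and 0 reversed direction. The spline results are adjusted p-values without a direction, so a reversal could be scored in the other comparisons alone. The comparison of 24 to 33 h with 12 to 21 h was not among them. With only the 8 arrays compared, 1 of the 7 rows passed at 12 to 21 h, 7 at 36 to 45 h against 24 to 33 h and 1 at 36 to 45 h against 0 to 9 h. With median scaling 1 row passed at 12 to 21 h, and CDKN1A had an adjusted p of 0.061 in the spline test. Without background correction the changes of the dim rows were smaller with the same calls, -0.62 for CDKN2C at 6 to 9 h, -0.60 for CDKN1C and -0.40 for CDKN2C at 12 to 21 h, and 0.86 for CDKN1C and 0.69 for CDKN2C at 36 to 45 h against 24 to 33 h. With a linear trend instead of the spline 1 row passed. Another alternative took out the difference between the means of 12 to 21 h and 24 to 33 h. It was chosen after seeing the data, and 1 row passed at 36 to 45 h against 0 to 9 h. Keeping combined rows by their intensity was also chosen after seeing the data. Leaving out each time point in turn gave 5 to 7 rows in the spline test, 3 to 6 at 6 to 9 h, 1 to 4 at 12 to 21 h, 0 to 0 at 24 to 33 h, 4 to 5 at 36 to 45 h against 24 to 33 h and 1 to 5 against 0 to 9 h. The lowest early count, 3, was that without the untreated 0 h array, which also gave the 5 rows against 0 to 9 h. The causes of these differences were not tested. No paired analysis was possible because each time point has 1 array. The number of arrays limits the precision, and signal over background limits CCNE1, CCNE2 and the second CDKN2C row. The median of rows never detected was 182 at 21 h and 169 at 24 h, and the part of this step in the changes across it was not tested.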
